A study of Arabidopsis thaliana with 39 samples.

Results

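The serine carboxypeptidase-like genes of Arabidopsis thaliana, written scpl or SCPL with a number, were followed across the oscillation zone of the root. Members were all genes given such a symbol by the array's probe-to-gene annotation, with no filter on signal. This gave 29 genes of 13350 named by a probe set of their own, each with 1 probe set. A further 3 genes, scpl36, scpl37 and scpl39, occurred only on 2 probe sets shared by several genes and were not counted.

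Serine carboxypeptidases are secreted or vacuolar enzymes of the alpha/beta hydrolase fold that use a catalytic serine to cut the last amino acid from the carboxyl end of a protein or peptide. Plants hold many of them. Some low-numbered Arabidopsis members work instead as acyltransferases that move a sinapoyl group from a glucose ester to another molecule, and another member, when overproduced, weakens the phenotype of brassinosteroid receptor mutants. For most members of the family no substrate is known.

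Total RNA was hybridised to 39 ATH1 arrays, of which 19 were titled OZ2 and 20 were titled OZ1. Both groups were of ecotype Columbia, aged 5 days and kept on standard media, and the source of both was given as DR5-GUS, a line in which an auxin-responsive promoter drives a reporter enzyme. By the labels the groups differed in the piece of root taken. The description places OZ2 in the upper and OZ1 in the lower part, while the tissue label states the reverse, so only the names OZ2 and OZ1 are used. The question of the comparison was which transcripts differed between both pieces, and a second question was which varied along the order from 1 to 39 that the submitters gave the arrays.

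The arrays varied in several respects that bear on the values below. Scan day 1 held 10 OZ2 and 12 OZ1 arrays, scan day 3 held 9 OZ2 arrays and scan day 2 held 8 OZ1 arrays, so days 2 and 3 cannot be told apart from the region. The median signal ranged from 54.4 to 164 between arrays. The hybridisation controls, bacterial and bacteriophage transcripts added in set amounts, averaged log2 13.16 ± 1.16 in OZ2 (SD, n = 19) and 12.67 ± 1.29 in OZ1 (SD, n = 20). Over all probe sets 6 arrays lay nearer the mean of the other region than that of their own, namely OZ2-32, OZ2-38, OZ1-2, OZ1-3, OZ1-6 and OZ1-10, and results that rest on them are given with and without them. The series text speaks of individual roots, yet 14 of the title numbers are shared by OZ2 and OZ1, so the p-values measure the spread between these arrays. In bulk tissue of this kind, fewer cells of a type and less RNA per cell cannot be told apart.

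Of the 29 members, scpl48 and SCPL45 rose in OZ2 relative to OZ1, scpl40 fell, and 26 did not pass the test. The test was limma over all 22746 probe sets other than controls, with Benjamini-Hochberg adjustment and a threshold of 0.05. Of the members 10.3% were called, against 17.1% of all probe sets. Rises were called for 8.41% and falls for 8.66% of all probe sets, against 2 and 1 of the 29 members. The median log2 difference, OZ2 minus OZ1, was 0.03 over the members and 0.02 over all probe sets, with 15 members above 0 and 14 below. As a group the members were therefore not called more often than other probe sets, and they shared no direction.

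**Figure D1:**
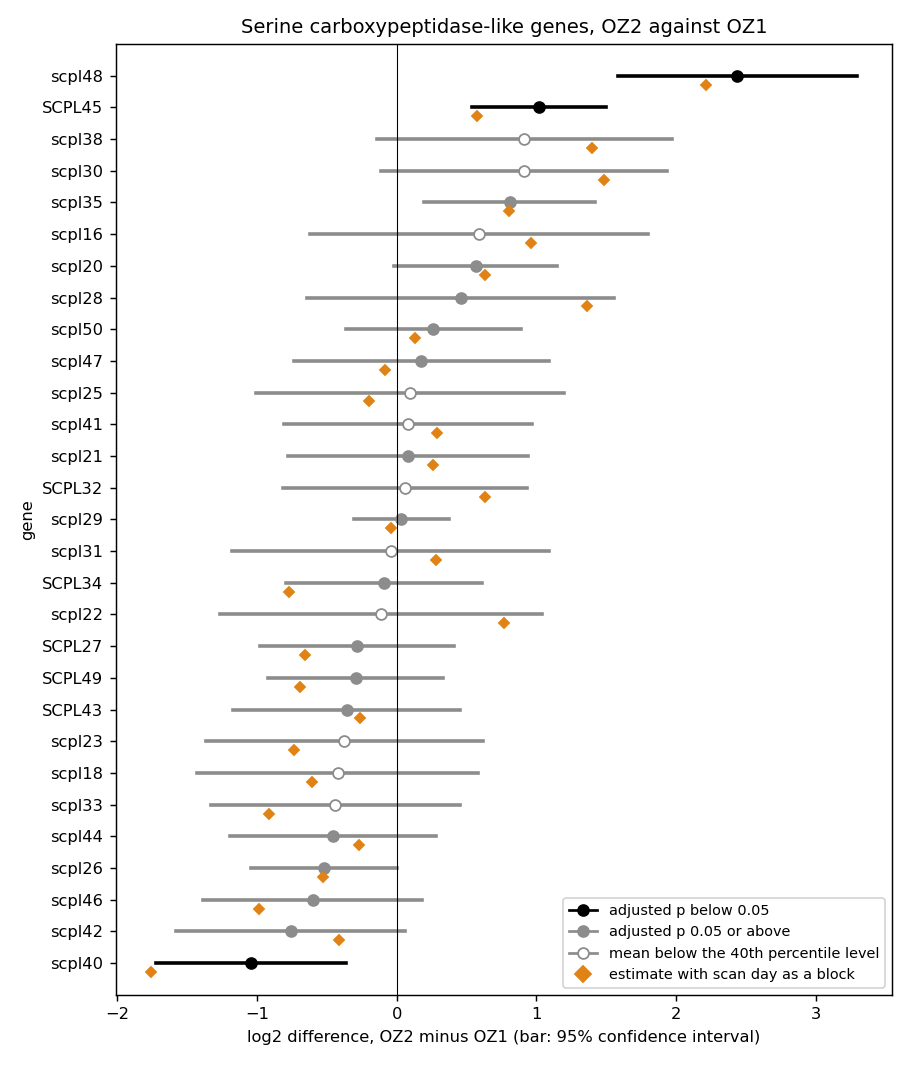
Log2 difference between OZ2 and OZ1 (horizontal axis) for each of the 29 genes (vertical axis), with bars for the 95% confidence interval over 39 arrays. Black marks are the 3 genes with an adjusted p below the threshold, open circles are genes whose mean lies below the 40th percentile of all probe sets, and diamonds are the estimates with scan day as a block. scpl48 stands at 2.44, SCPL45 at 1.02 and scpl40 at -1.04, and the other 26 lie between -0.76 and 0.91.

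scpl48 (AT3G45010) had the largest difference of the family. Its signal in OZ2 had a lowest value of 185, a median of 1689 and a highest value of 5385, against 21.9, 279 and 4001 in OZ1. In 18 of 19 OZ2 arrays it was above the OZ1 median, and 8 OZ1 arrays were below the lowest OZ2 array, but the ranges of both regions overlapped. The mean log2 signal was 10.46 ± 1.16 in OZ2 (SD, n = 19) and 8.02 ± 1.74 in OZ1 (SD, n = 20), a difference of 2.44 ± 0.43 (SE) or 5.43-fold, with a 95% confidence interval of 1.58 to 3.30 on the log2 scale and a limma adjusted p of 3.62e-05.

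Much of the overlap in scpl48 lay in the arrays that stood nearer the other region. The 4 such OZ1 arrays had signals of 1169 in OZ1-2, 4001 in OZ1-3, 1225 in OZ1-6 and 1173 in OZ1-10, while the other 16 OZ1 arrays lay between 21.9 and 486. OZ2-38 gave the lowest OZ2 value, 185, and OZ2-32 gave 774. Without the 6 arrays the log2 difference was 3.32 (limma adjusted p 2.37e-11). These arrays were picked for their distance from their own region, so leaving them out tends to widen differences between the regions by construction. In that fit 25.9% of all probe sets were called.

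The difference in scpl48 was present within scan day 1, with a mean log2 signal of 10.49 in 10 OZ2 arrays and 8.28 in 12 OZ1 arrays. Between the other days it was 10.42 in 9 OZ2 arrays and 7.63 in 8 OZ1 arrays. With scan day as a block, where only day 1 informs the comparison of regions, the log2 difference was 2.21 (limma adjusted p 0.0133), and 5.98% of all probe sets were called. The difference within day 1 was not distinguishable from that between the other days (difference of log2 differences -0.58 ± 0.87 SE, limma adjusted p 0.851). scpl48 was called in all 12 settings tried, with log2 differences of 2.21 to 3.32, and scpl48, SCPL45 and scpl40 were each called in all 39 fits that left out 1 array.

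SCPL45 (AT1G28110) had a lowest signal of 445, a median of 1419 and a highest of 2708 in OZ2, against 346, 592 and 2824 in OZ1. It was above the OZ1 median in 18 of 19 OZ2 arrays, and the highest value of all came from an OZ1 array. The mean log2 signal was 10.44 ± 0.60 in OZ2 (SD, n = 19) and 9.42 ± 0.83 in OZ1 (SD, n = 20), a difference of 1.02 ± 0.24 (SE) or 2.02-fold, with a 95% interval of 0.54 to 1.50 and a limma adjusted p of 0.00143. Its within-region SD of log2 0.73 lay at the 8.89th percentile of all probe sets. Its mean signal lay at percentile 94.1, and its spread was not compared with that of probe sets of like signal.

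As with scpl48, the arrays nearer the other region carried the overlap in SCPL45. The signals were 1623 in OZ1-2, 1987 in OZ1-3, 1445 in OZ1-6 and 2824 in OZ1-10, against 346 to 787 in the other 16 OZ1 arrays. In OZ2 the lowest values were 445 in OZ2-38 and 787 in OZ2-32, against 1009 to 2708 in the other 17 arrays. Without the 6 arrays the regions did not overlap in SCPL45, and the log2 difference was 1.53 (limma adjusted p 1.13e-09), in a fit that called 25.9% of all probe sets. The 6 arrays were picked for their distance from their own region, so leaving them out favours such a separation by construction.

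The call of SCPL45 did not hold within a scan day. Its mean log2 signal on day 1 was 10.22 in OZ2 and 9.65 in OZ1, a difference of 0.57 (limma adjusted p 0.307 with scan day as a block, 0.367 in day 1 alone). Between the other days it was 10.68 in OZ2 and 9.07 in OZ1, a difference of 1.60 ± 0.35 (SE). The gap between both differences, -1.03 ± 0.47 (SE), did not pass the test over all probe sets (limma adjusted p 0.43). Of the 6 arrays nearer the other region, only OZ1-3 was not scanned on day 1.

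scpl40 (AT3G63470) was the member that fell. Its signal in OZ2 had a lowest value of 24.8, a median of 358 and a highest value of 1439, against 231, 766 and 2094 in OZ1. It was below the OZ1 median in 14 of 19 OZ2 arrays, 5 of which were below the lowest OZ1 array, and the regions otherwise overlapped. The mean log2 signal was 8.43 ± 1.33 in OZ2 (SD, n = 19) and 9.47 ± 0.90 in OZ1 (SD, n = 20), a difference of -1.04 ± 0.34 (SE), or 2.06-fold higher in OZ1, with a 95% interval of -1.72 to -0.37 and a limma adjusted p of 0.0242.

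The fall of scpl40 was measured within scan day 1, where the mean log2 signal was 7.78 in OZ2 and 9.54 in OZ1, a difference of -1.76 (limma adjusted p 0.00693 with scan day as a block). Between the other days the means were 9.15 in OZ2 and 9.38 in OZ1, a difference of -0.22 ± 0.48 (SE). The gap between both differences was -1.54 ± 0.64 (SE) and did not pass the test (limma adjusted p 0.391). The lowest OZ2 value, 24.8, came from OZ2-32, the array with the highest control level, log2 15.45.

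scpl40 was no longer called with the control level as a term (log2 difference -0.87, limma adjusted p 0.0554), a fit in which 17.2% of all probe sets were called. After quantile normalization its difference was as large, -1.04, but the limma adjusted p was 0.0552. Without the 6 arrays the difference was -0.80 (limma adjusted p 0.054), and without OZ2-32 alone it was -0.83 (limma adjusted p 0.0388).

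**Figure D2:**
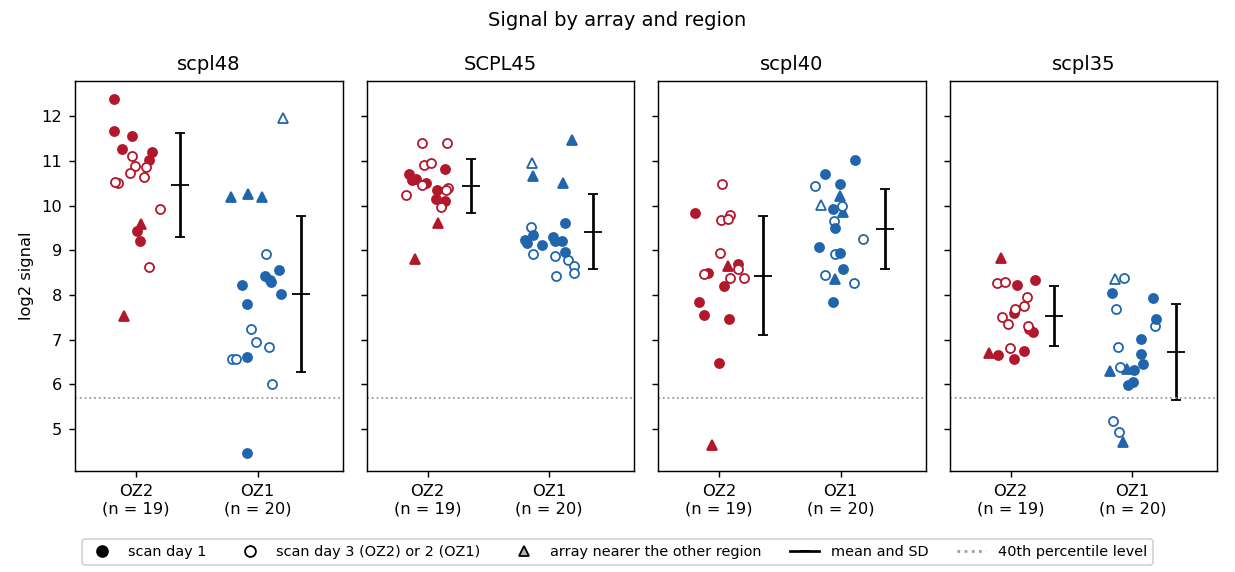
Log2 signal (vertical axis) of scpl48, SCPL45, scpl40 and scpl35 on each array, OZ2 to the left of OZ1. Filled marks are scan day 1, open marks the other days, triangles the 6 arrays nearer the other region, and bars the mean and SD. The 4 OZ1 triangles sit at the top of OZ1 in scpl48 and SCPL45, and the lowest OZ2 mark in scpl40 is the triangle of OZ2-32 with a signal of 24.8.

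Among arrays nearer their own region, no relation between scpl48 and SCPL45 passed the test. Pearson's r of their log2 signals was 0.10 over 17 OZ2 arrays and 0.11 over 16 OZ1 arrays (rho 0.09 and 0.24), and both had permutation p-values of 0.936 after adjustment over 6 relations. Without the 2 arrays farthest from the median of SCPL45, r was 0.32 in OZ2 and 0.38 in OZ1, and within scan day 1 it was 0.36 in OZ2 and 0.32 in OZ1. It was 0.12 within scan day 3 of OZ2 and -0.50 within scan day 2 of OZ1. For scpl40 with scpl48 in OZ2, r was -0.53 (permutation p 0.165 after adjustment) and rho -0.65 (permutation p 0.0357 after adjustment). r was -0.49 without the 2 arrays farthest from the median of scpl40, -0.82 within scan day 1 and 0.13 within scan day 3. In OZ1 the same pair gave r 0.03 (adjusted permutation p 0.936).

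Of the 26 members that were not called, scpl35, scpl38 and scpl30 had the largest differences. scpl35 (AT5G08260) had a lowest signal of 95.1, a median of 183 and a highest of 457 in OZ2, against 26.0, 95.2 and 330 in OZ1. All 19 OZ2 arrays were above the OZ1 median and 10 OZ1 arrays were below the lowest OZ2 array. The log2 difference was 0.81 ± 0.30 (SE, 95% interval 0.20 to 1.42) with a limma adjusted p of 0.0583, the lowest among the members not called. When only probe sets above the 40th percentile of mean signal were tested, which calls 29.0% of them, scpl35 was called (limma adjusted p 0.0354) and 4 of the 18 members tested passed. It was also called without any 1 of 8 arrays, which were OZ2-4, OZ2-22, OZ2-38, OZ1-3, OZ1-13, OZ1-19, OZ1-31 and OZ1-35, with a lowest limma adjusted p of 0.0308. Within scan day 1 its log2 difference was 0.80 (limma adjusted p 0.279 with scan day as a block). Between the other days it was 0.78 ± 0.47 (SE).

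scpl38 (AT2G05850) had a lowest signal of 1.98, a median of 10.6 and a highest of 226 in OZ2, against 2.14, 8.63 and 37.3 in OZ1. Its medians were close, and 7 OZ2 arrays were above the highest OZ1 array. The log2 difference was 0.91 ± 0.53 (SE, 95% interval -0.14 to 1.97, limma adjusted p 0.269). scpl30 (AT4G15100) had a lowest signal of 9.45, a median of 68.6 and a highest of 374 in OZ2, against 3.14, 59.7 and 228 in OZ1. Its log2 difference was 0.91 ± 0.51 (SE, 95% interval -0.11 to 1.94, limma adjusted p 0.25), and the ranges overlapped over most of their length.

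scpl16 and scpl18 are the members whose numbers fall in the part of the family that holds the acyltransferases. scpl16 had a log2 difference of 0.59 (95% interval -0.62 to 1.80), with a median signal of 23.5 in OZ2 and 14.2 in OZ1. scpl18 had a log2 difference of -0.42 (95% interval -1.43 to 0.58), with medians of 54.3 in OZ2 and 71.2 in OZ1. Both had means below the 40th percentile of all probe sets (log2 5.69, a signal of 51.6), and their intervals reach past 1 log2 unit on one side.

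The other members are numbered with the carboxypeptidases. Besides those named above, the ones with a mean above that level were scpl20, scpl21, scpl26, SCPL27, scpl28, scpl29, SCPL34, scpl42, SCPL43, scpl44, scpl46, scpl47, SCPL49 and scpl50, and the ones below it were scpl22, scpl23, scpl25, scpl31, SCPL32, scpl33 and scpl41. In all, 18 members lay above and 11 below. The median SE of the log2 difference was 0.35 above the level and 0.51 below it, so the dim members set looser limits. For 8 of the 26 members not called, the 95% interval lay within 1 log2 unit of 0 on both sides.

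scpl29 (AT4G30810) was the steadiest member. Its signal had a lowest value of 444, a median of 797 and a highest value of 1915 in OZ2, against 457, 873 and 1083 in OZ1. The lower ends were alike, and 2 OZ2 arrays were above the highest OZ1 array. Its within-region SD of log2 0.38 lay at the 0.136th percentile of all probe sets, and its log2 difference was 0.03 (95% interval -0.31 to 0.37). At the other end stood scpl16, with a within-region SD of log2 1.97, at the 96.6th percentile. The mean signal of scpl29 lay at percentile 93.2 of all probe sets and that of scpl16 at percentile 15.7. Spread was not compared among probe sets of like signal.

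SCPL49 (AT3G10410), whose annotation carries the name of carboxypeptidase Y, a vacuolar enzyme in yeast, had a lowest signal of 23.1, a median of 1054 and a highest of 1608 in OZ2, against 517, 987 and 1784 in OZ1. The medians were alike, and the lowest value again came from OZ2-32. The log2 difference was -0.29 (95% interval -0.92 to 0.33), and -0.01 without OZ2-32. SCPL34 had medians of 699 in OZ2 and 584 in OZ1 (log2 difference -0.09, 95% interval -0.79 to 0.61), and SCPL27 had medians of 341 in OZ2 and 389 in OZ1 (log2 difference -0.28, 95% interval -0.98 to 0.41).

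Array OZ2-10 stood out in several members, and the differences of SCPL34 and SCPL27 moved when it was left out. OZ2-10 held the highest signal of scpl48 (5385) and of scpl28 (1873), and the lowest of SCPL34 (27.8), SCPL27 (12.2) and scpl29 (444). Its control level of log2 12.77 was near the middle of the arrays. Without OZ2-10 the log2 difference was 0.15 for SCPL34, against -0.09 with it, and -0.04 for SCPL27, against -0.28 with it. For SCPL34 the difference was also above 0 without OZ2-9 alone, at 0.08.

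Members not called over all arrays were called when the 6 arrays were left out. These were scpl20 (log2 difference 0.84, limma adjusted p 0.0323), scpl26 (-0.89, limma adjusted p 0.00102) and scpl42 (-1.19, limma adjusted p 0.0224), beside scpl48 and SCPL45. That fit called 25.9% of all probe sets. Leaving out arrays picked for their distance from their own region tends to widen differences between the regions by construction. It does not widen each of them, as that of scpl40 went from -1.04 to -0.80. Over all arrays scpl26 had a median signal of 503 in OZ2 and 851 in OZ1, with 16 of 19 OZ2 arrays below the OZ1 median, and a log2 difference of -0.52 (limma adjusted p 0.187). Without OZ1-10 alone the difference of scpl26 was -0.68 (limma adjusted p 0.0232). scpl20 had medians of 221 in OZ2 and 138 in OZ1 (log2 difference 0.57, limma adjusted p 0.198), and scpl42 had medians of 62.5 in OZ2 and 103 in OZ1 (log2 difference -0.76, limma adjusted p 0.227).

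In the reference annotation scpl22 and scpl23 are adjacent genes, as are scpl26 and scpl28. The log2 difference was -0.11 (95% interval -1.27 to 1.04) for scpl22 and -0.37 (95% interval -1.37 to 0.62) for scpl23. It was -0.52 (95% interval -1.04 to 0.0033) for scpl26 and 0.46 (95% interval -0.64 to 1.56) for scpl28. No neighbour pair held a called member over all arrays, and whether their probes share targets was not tested.

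Along the submitters' order, with the region as a term, 2 of the 29 members were called, SCPL32 and scpl38. This was 6.90% of the members, against 2.21% of all probe sets, in a limma F-test of 3 harmonics with adjustment over all probe sets. A further 4 members had an unadjusted p below 0.05, for 6 of 29 in all, and so did 4893 of all 22746 probe sets. By that measure the members did not stand out from other probe sets. The sources used here do not say how this order was derived, and a fit along an order taken from the same arrays would not be independent of it.

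SCPL32 (AT1G61130) had a fitted range of log2 2.89 (F 5.00, limma adjusted p 0.038). In OZ2 its mean log2 signal was 3.99 at positions 21 to 27, 4.44 at 28 to 33 and 3.24 at 34 to 39. In OZ1 it was 2.98 at positions 1 to 7, 5.00 at 8 to 14 and 3.47 at 15 to 20. The middle stretch was the highest in both regions. The signal was dim throughout, above the level of 51.6 on 1 OZ2 array and 1 OZ1 array, and the log2 difference between regions was 0.06 ± 0.44 (SE, limma adjusted p 0.958). Without the 6 arrays nearer the other region SCPL32 was not called along the order (fitted range log2 3.01, limma adjusted p 0.0833), in a fit that called 0.963% of all probe sets. It also lost the call without any 1 of 10 arrays, which were OZ2-4, OZ2-19, OZ2-22, OZ2-40, OZ1-1, OZ1-3, OZ1-4, OZ1-15, OZ1-16 and OZ1-31, with a highest limma adjusted p of 0.0678.

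scpl38 had a fitted range of log2 4.47 (F 5.32, limma adjusted p 0.031). In OZ2 its mean log2 signal was 2.78 at positions 21 to 27, 6.25 at 28 to 33 and 3.35 at 34 to 39. In OZ1 it was 2.91 at positions 1 to 7, 3.87 at 8 to 14 and 2.56 at 15 to 20. Its signal passed 51.6 on 5 OZ2 arrays, at the consecutive positions 28, 29, 30, 31 and 32, and on 0 OZ1 arrays. The signals at those positions were 106, 115, 147, 226 and 52.6. Without the 6 arrays scpl38 was called (fitted range log2 4.27, limma adjusted p 0.043). It lost the call without any 1 of 5 arrays, which were OZ2-19, OZ2-22, OZ2-32, OZ2-35 and OZ1-1, with a highest limma adjusted p of 0.0761.

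The control level moved in the same way along the order. In OZ2 it was log2 12.47 at positions 21 to 27, 14.58 at 28 to 33 and 12.54 at 34 to 39. In OZ1 it was 12.36 at positions 1 to 7, 13.87 at 8 to 14 and 11.63 at 15 to 20. With the control level as a term neither SCPL32 nor scpl38 was called (limma adjusted p 1 for both), and limma called 0 of 22746 probe sets along the order, of which 810 had an unadjusted p below 0.05. After quantile normalization limma again called 0 probe sets, of which 2269 had an unadjusted p below 0.05, with adjusted p-values of 0.461 for SCPL32 and 0.317 for scpl38.

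**Figure D3:**
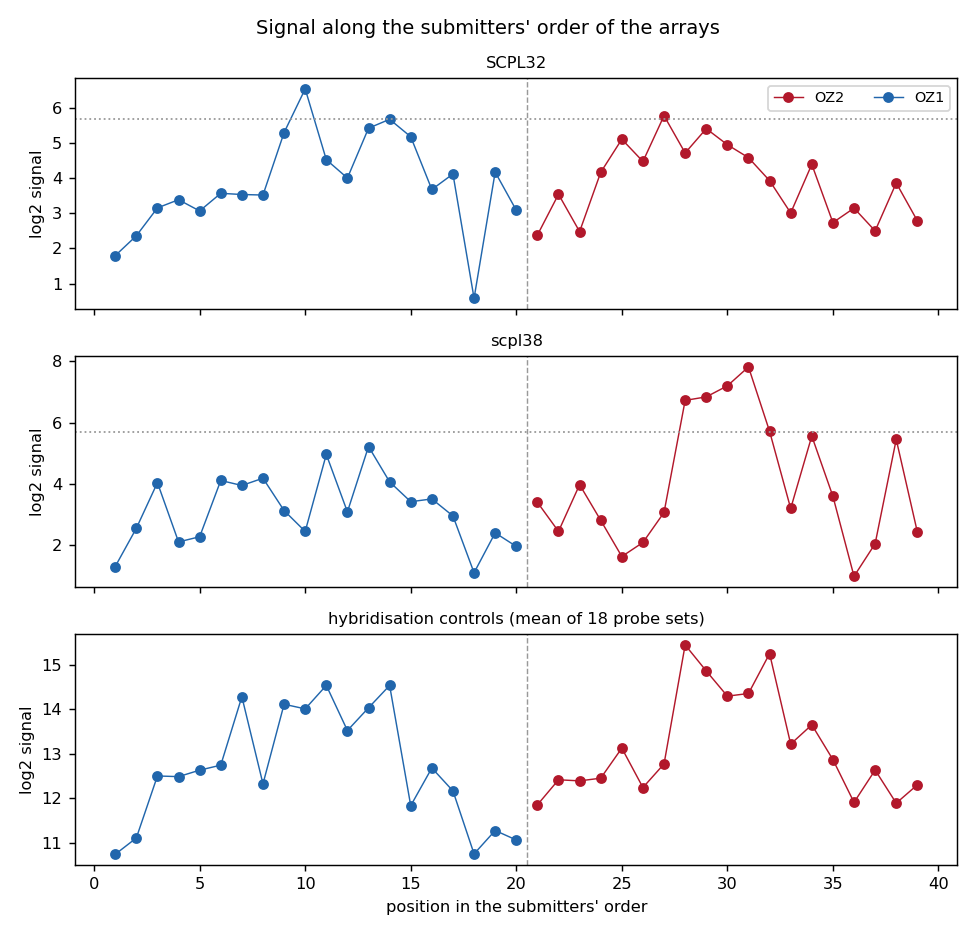
Log2 signal (vertical axes) of SCPL32, scpl38 and the mean of 18 hybridisation control probe sets at positions 1 to 39 of the submitters' order (horizontal axis). Each point is an array, the dashed line parts the regions and the dotted line is the 40th percentile of all probe sets. The mean of each of the 3 panels is highest in the middle stretch of each region, in scpl38 most clearly at positions 28 to 32 of OZ2.

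The relation to the control level was examined for all members within each region, 58 relations in all. Among the 11 members below the 40th percentile the median Pearson's r was 0.48 in OZ2 and 0.47 in OZ1, and 3 passed in each region. Among the 18 members above it the median r was -0.05 in OZ2 and 0.07 in OZ1, and 1 passed in OZ2 and 5 in OZ1. Dim members thus went with the controls more often upward than bright ones, as a description of these arrays with no test of the difference. These relations were run for the members only, so no share over all probe sets stands beside the counts. Whether dim probe sets in general went with the controls was not tested.

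For scpl38, r was 0.76 in OZ2 (rho 0.62, permutation p 0.00338 and 0.0322 after adjustment) and 0.69 in OZ1 (rho 0.68, permutation p 0.00679 and 0.016 after adjustment). Without the 2 arrays farthest from the median control level r was 0.74 in OZ2 and 0.62 in OZ1, and within scan day 1 it was 0.78 in OZ2 and 0.84 in OZ1. Within scan day 3 r was 0.84 over OZ2, and within scan day 2 it was 0.45 over OZ1.

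For SCPL32, r was 0.52 in OZ2 (rho 0.56, permutation p 0.0816 and 0.0497 after adjustment) and 0.72 in OZ1 (rho 0.67, permutation p 0.00338 and 0.0176 after adjustment). It was 0.58 in OZ2 and 0.69 in OZ1 without the 2 farthest arrays, 0.53 and 0.66 within scan day 1, 0.47 within scan day 3 of OZ2 and 0.85 within scan day 2 of OZ1.

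Bright members went both ways. In OZ1 scpl20, scpl44, scpl47 and scpl50 correlated positively with the controls, with r of 0.71, 0.79, 0.56 and 0.77 (permutation p 0.00338, 0.00058, 0.0476 and 0.00174 after adjustment), while scpl40 correlated negatively, with r of -0.63 (rho -0.62, permutation p 0.0208 and 0.0305 after adjustment). Spearman's rho of the 4 was 0.79, 0.77, 0.65 and 0.81. Without the 2 farthest arrays r was 0.63, 0.80, 0.48 and 0.75 for the 4 and -0.50 for scpl40, within scan day 1 it was 0.83, 0.81, 0.54, 0.84 and -0.72, and within scan day 2 it was 0.34, 0.82, 0.58, 0.57 and -0.39. In OZ2 SCPL49 was the bright member that passed, with r of -0.68 (permutation p 0.00338 after adjustment) but a rho of -0.45 (permutation p 0.119 after adjustment) and an r of -0.42 without the 2 farthest arrays. Within a scan day r was -0.69 on both day 1 and day 3.

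For scpl48, r was -0.40 in OZ2 (permutation p 0.167 after adjustment) and 0.20 in OZ1 (permutation p 0.516 after adjustment). With the control level as a term its log2 difference between regions was 2.45 (limma adjusted p 7.07e-05), and that of SCPL45 was 0.93 (limma adjusted p 0.00313).

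**Figure D4:**
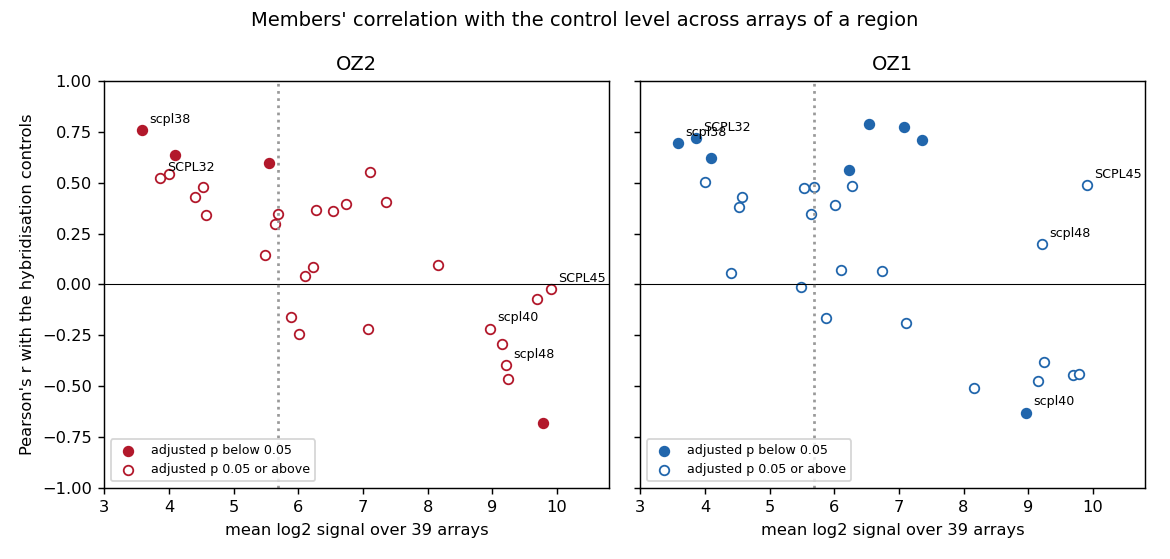
Pearson's r between each member's log2 signal and the hybridisation controls (vertical axis) against the member's mean log2 signal over 39 arrays (horizontal axis), for 19 OZ2 arrays on the left and 20 OZ1 arrays on the right. Filled marks passed after adjustment over 58 relations and the dotted line is the 40th percentile level. Members left of the line lie mostly above 0, with a median r of 0.48 in OZ2 and 0.47 in OZ1, and members right of it spread to both sides.

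Genes of related pathways were counted in the same fit, in which 17.1% of all probe sets were called (8.41% higher and 8.66% lower in OZ2), against 5.98% with scan day as a block. Named probe sets matched 5 of 24 sinapate ester and phenylpropanoid, 4 of 24 protease and 1 of 20 brassinosteroid symbols listed. Of the 5 sinapate ester and phenylpropanoid enzymes with a named probe set, 2 rose and 3 did not pass, with a median log2 difference of 1.24. Those that rose were HCT, a hydroxycinnamoyltransferase of the lignin pathway (1.98 ± 0.35 SE, limma adjusted p 3.90e-05, and 1.55 with adjusted p 0.034 under the block), and UGT84A3, which makes glucose esters of hydroxycinnamic acids (1.48 ± 0.48 SE, limma adjusted p 0.0254, and 1.64 with adjusted p 0.139 under the block). UGT84A3 had a mean log2 signal of 6.26 in OZ2 and 4.78 in OZ1, the latter below the 40th percentile level of 5.69. With the control level as a term UGT84A3 was not called (limma adjusted p 0.0538), while HCT was. Of 4 other proteases, all vacuolar processing enzymes of the legumain type, 2 rose and 2 did not pass, with a median of 1.05. These were GAMMA-VPE (1.30 ± 0.32 SE, limma adjusted p 0.0025, and 0.88 with adjusted p 0.238 under the block) and BETA-VPE (1.07 ± 0.34 SE, limma adjusted p 0.0224, and 1.24 with adjusted p 0.0869 under the block). BRL1, a brassinosteroid receptor and the 1 named gene of that pathway's list, had a log2 difference of 0.69 (limma adjusted p 0.464).

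Some markers of other tissues were called between the regions as well. Named probe sets matched 3 of 12 root hair, 7 of 14 mitosis and replication, 3 of 13 photosynthesis and 1 of 12 phloem symbols listed. The other symbols were not examined. Of all probe sets, 8.41% were called higher and 8.66% lower in OZ2. The gene lists were chosen with earlier results of these data known, so their counts are a description and no independent support. Of 3 root hair genes 2 rose, the expansins EXPA18 (log2 difference 4.23) and EXPA7 (3.43), with a median of 3.43 over the list. Of 7 genes of mitosis and replication 5 fell and 2 did not pass, with a median of -1.26, led by the histones HTB4 (-1.57) and HTB2 (-2.21). Of 3 photosynthesis genes 2 rose, LHCB4.1 (1.95) and PSBY (1.12), with a median of 1.12. With scan day as a block EXPA18 was still called (3.65, limma adjusted p 0.00209), while EXPA7 (2.09, adjusted p 0.111), HTB4 (-1.10, adjusted p 0.0636), HTB2 (-0.98, adjusted p 0.267), LHCB4.1 (2.14, adjusted p 0.0838) and PSBY (1.13, adjusted p 0.139) were not. OPS, the 1 named phloem gene, had a log2 difference of 0.25 (limma adjusted p 0.819). The lists for xylem and endodermis matched no named probe set and were not analysed here. The part of these markers in the differences of scpl48, SCPL45 and scpl40 was not tested.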

How the data were processed

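The deposited table holds an intensity for each probe set on each array. Per the submitters' processing notes the authors computed it with MAS5. The sources used here name no version of it. They had been scaled before deposit: the mean of the values between percentiles 2 and 98 was 249.8 to 249.9 on all 39 arrays. Such scaling multiplies all values of an array by 1 factor. The scan day was read from the scanner's records that the authors deposited (other text, not a measurement). No detection calls were used, and precision is limited by how many arrays there are. The highest correlation between any 2 arrays was 0.877, so none was a copy.

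Of 22810 probe sets, 64 controls were left out. The probe table names 1 gene for 13513, several for 503, and 8730 are unnamed here. All 29 members matched the TAIR10.1 annotation, used for locus identifiers and neighbours, with no coordinates printed. Values were log2-transformed and fitted in R 4.3.3 with limma 3.58.1, using lmFit and eBayes with a trend of variance on mean, two-sided, with Benjamini-Hochberg adjustment over all 22746 probe sets. The fits were tested on simulated data. Correlations used 100000 permutations. Full statistics were given for members called in either fit and for the 6 largest differences, and up to 2 called genes were named per list. The members and lists were chosen with earlier results of these data known. The differences between scan days, the correlations with the control level, those among the called members and fits without each array in turn were added after seeing the data. Numbers in the titles were checked as pairs: deviations of same-numbered arrays from their region means had correlations of -0.318 to 0.176 over 14 numbers. This check did not show that the numbers pair the samples, and it cannot exclude that they do.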

Additional observations from a re-analysis of the deposited data

How the results depend on the processing

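The count of 3 called members was 2 to 5 over the alternatives. With the 6 arrays nearer the other region left out, 5 members were called in place of 3, with 2 lower in OZ2 in place of 1. Members higher in OZ2 numbered 1 in place of 2 with scan day as a block and in scan day 1 alone, where SCPL45 was lost. Members lower in OZ2 numbered 0 after quantile normalization or with the control level added, where scpl40 was lost (-1.04 and -0.87), and 2 with array weights, where scpl26 was added. Probe sets called numbered 3883 over all arrays, 6234 with array weights, 1360 with scan day as a block, 675 in scan day 1 alone and 5896 without the 6 arrays. Members called along the order numbered 2. Without a region term they numbered 5, in a fit that called 3589 probe sets. Among the 5 were scpl48 (limma adjusted p 0.0134) and SCPL45 (limma adjusted p 0.0373), whose difference between regions was then not removed. With 2 harmonics scpl30 was called beside SCPL32 and scpl38 (limma adjusted p 0.0287 for scpl30), in a fit that called 1721 probe sets. The count was 1 with log2(value + 16) and without the 6 arrays, where SCPL32 was lost in both. It was 0 with the control level added, after quantile normalization and with the filter at the 40th percentile. That filter left SCPL32 and scpl38 untested. The log2 difference of SCPL32 between regions, 0.06, changed sign to -0.0642 after quantile normalization, -0.0260 with log2(value + 16) and -0.258 with the control level added, never near the threshold. The causes were not tested. Under the replicate block, over the 14 numbers shared by both regions, 3 members and 3705 probe sets were called, and the log2 difference of scpl48 was 2.97. In that check 2 arrays correlated best with their own number. Of 71 log2 differences of 7 named members under other settings, 61 kept direction and call, 5 lost and 2 gained the call, and 3 changed sign. Of 106 for the 10 named genes of the lists, 86 kept and 20 lost the call, with no change of sign. With each array left out in turn, 3 to 4 members and 3472 to 4523 probe sets were called between regions, and 0 to 3 members along the order. These fits were added after seeing the data. Choosing the probe set by variance was not run, since each member has 1 probe set. Dim signal limits the 11 members below the 40th percentile.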
